A study of Mus musculus with 18 samples.

Results

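The interaction of genotype and oxLDL at 10 µg/ml (oxLDL 10) was examined in mouse bone marrow-derived macrophages (BMDM). It is the response to oxLDL 10 in Apoe-/-/Treml4-/- double knockout cells (DKO) minus the same response in Apoe-/- cells, on the log2(RPKM + 0.1) scale. A positive value means that a transcript rose more, or fell less, in DKO. All genes with at least 0.1 RPKM (reads scaled to gene length and library size) in at least 3 of 18 libraries entered, which gave 12838 of 18668 gene symbols. The contrast rests on 12 of the 18 libraries: 3 untreated and 3 oxLDL 10 libraries of each genotype. The other 6 libraries, from cells given oxLDL at 60 µg/ml (oxLDL 60), helped to estimate the spread.

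Both genotypes lack Apoe, and DKO lack Treml4 as well, from a germline deletion. DKO were bred from a cross of the single mutants and then intercrossed, so that genotype and breeding line cannot be told apart. Cells of strain C57BL6 were grown from marrow with M-CSF and then given oxLDL or PBS as vehicle, for 16 h by the series' own text and for longer by the study's methods. The age of the mice is not given in the sources used here. The treatment protocol given with the samples also mentions LPS, and this could not be resolved.

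Oxidized low-density lipoprotein (oxLDL) is taken up by macrophages through scavenger receptors and brings in cholesterol, oxysterols and oxidized lipids. Oxysterols activate the nuclear receptor LXR, which raises genes of cholesterol export, while sterols hold back SREBP2 and with it genes of cholesterol synthesis. Oxidized lipids also activate NRF2, a factor that raises antioxidant genes. Treml4 is a receptor of the TREM family on myeloid cells, known for a part in Toll-like receptor signalling. An interaction would show where the response to the lipid load differs between DKO and Apoe-/-. Untreated levels enter it as much as treated ones.

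Treml4 itself was read first. Replicates 1 to 3 of untreated Apoe-/- had 1.86, 3.48 and 2.60 RPKM, and those given oxLDL 10 had 3.27, 3.61 and 3.08 RPKM. In DKO the gene was listed at 0 in 5 of the 6 libraries and at 0.0116 RPKM in untreated replicate 2. All 6 DKO libraries were below the level of 3 reads, so a response of Treml4 in DKO could not be measured and its fitted interaction (-0.41) depends on the pseudocount. Depth lay between 39.2 and 48.4 M reads in the 12 libraries. Macrophage markers (Csf1r, Adgre1, Cd68 and others) were detected in all of them, summing to 7545 to 12173 RPKM. Dendritic cell markers summed to 144 to 188 RPKM and neutrophil markers to 36.2 to 89.0 RPKM. The sums were 26.9 to 35.4 RPKM for B cell markers and 1.12 to 23.8 RPKM for fibroblast or stromal markers. Markers of T or NK cells, mast cells or basophils, and erythroid cells summed to at most 1.37 RPKM. Xist was expressed in Apoe-/- replicate 2 and DKO replicate 3 (7.25 to 14.5 RPKM) and was at most 0.0690 RPKM in the other 8 libraries, so that both genotypes had 1 such replicate among 3.

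In the main fit, which did not pair libraries by replicate number, no gene was called in the interaction (0% of genes tested). A call was set at a limma adjusted p under 0.05 and at least 1.4-fold. The smallest adjusted p was 1.00, and 246 genes (1.92%) had an unadjusted p under 0.05, of which 39 were higher (0.304% of genes tested) and 207 lower in DKO (1.61%). That split depended on the scaling: after rescaling libraries by the median ratio it was 139 higher (1.08%) and 146 lower (1.14%), or 2.22% together. The count itself ran from 143 without DKO replicate 2 to 668 without Apoe-/- replicate 3, and reached 513 without the untreated library and 396 without the oxLDL 10 library of that replicate. The median interaction over all genes was -0.03. When replicates of a genotype with the same number were assumed to be 1 animal and joined (the replicate block), 1 gene was called (0.00779%), Scd2. In that fit 500 genes (3.89%) had an unadjusted p under 0.05.

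A missed call does not show that responses were alike, so the intervals were read as well. For 8245 genes (64.2%) the 95% interval of the interaction lay inside 1.4-fold in both directions. The median distance from the estimate to either end of the interval was 0.30 on the log2 scale, or 1.23-fold. Among the 445 genes called in the mean response of both genotypes (3.47%; higher 0.904%, lower 2.56%), 111 (24.9%) had such a narrow interval. In this fit, without the block, the intervals of most responding genes thus reached past 1.4-fold. With the block the median standard error (SE) was 0.11 against 0.14 without it, and 9518 genes had an interval inside 1.4-fold. SEs and intervals in the text are from the fit without the block unless it is named.

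The called genes of the responses were largely shared. In Apoe-/- 358 genes were called (2.79%), 96 higher (0.748%) and 262 lower (2.04%). In DKO the count was 290 (2.26%), with 73 higher (0.569%) and 217 lower (1.69%). Without the block, 244 genes were called in the same direction in both (56 higher, 188 lower), which is 68.2% of the Apoe-/- calls and 84.1% of the DKO calls, and 0 genes were called in opposite directions. With the replicate block 528 genes (4.11%) were called in Apoe-/-, 449 (3.5%) in DKO and 365 in both. Without the block and DKO replicate 2 the DKO count fell to 124 and the shared count to 108, without DKO replicate 1 to 133 and 117, and without Apoe-/- replicate 3 the Apoe-/- count fell to 234 and the shared count to 159. Leaving out single libraries had a like effect on the DKO count for untreated replicate 3 (185, with 159 shared) and oxLDL 10 replicate 2 (186).

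Calls made in 1 genotype mostly pointed the same way in the other. Apoe-/- had 114 calls that DKO lacked, and 112 of them moved in the same direction there, with a median absolute change of 0.60 in Apoe-/- and 0.44 in DKO. DKO had 46 calls that Apoe-/- lacked, all with that direction in Apoe-/- too, with medians of 0.47 in Apoe-/- and 0.64 in DKO. None of these 160 genes was called in the interaction in limma, with or without the replicate block. Of them 14 had an unadjusted p under 0.05, against 246 (1.92%) of all 12838 genes tested. They were picked for passing in 1 genotype only, which by itself favours unequal responses, so this count and these medians are a description. Genes called higher in the mean response rose by a median of 0.64 in Apoe-/- and 0.66 in DKO, and those called lower had medians of -0.77 and -0.74.

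**Figure D1:**
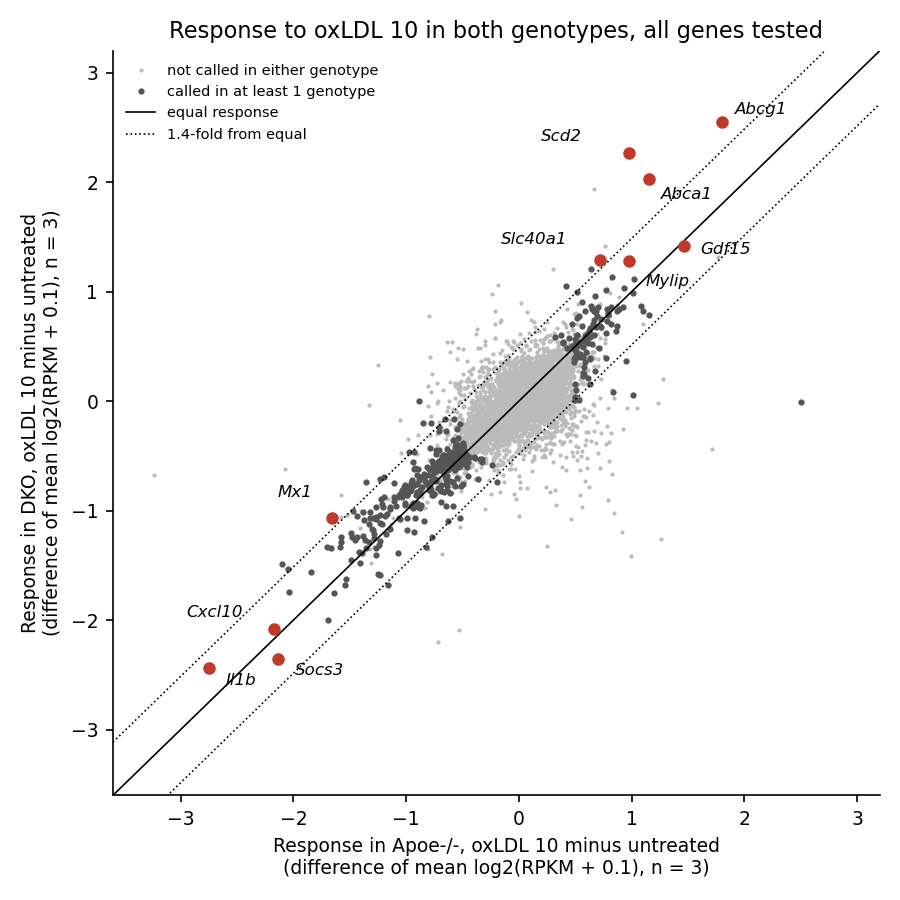
Response to oxLDL 10 in Apoe-/- (x axis) and DKO (y axis) for the 12838 genes tested, each as a difference of group means of log2(RPKM + 0.1) with 3 libraries a group. Dark points are genes called in at least 1 genotype, and red points are named. Most dark points lie along the line of equal response. Among the named points, Scd2, Abca1, Abcg1, Mx1 and Slc40a1 lie above the upper dotted line that marks 1.4-fold.

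The largest responses are given gene by gene. Il1b, the inflammatory cytokine, went from 4.50, 8.71 and 5.57 to 0.928, 1.02 and 0.558 RPKM in Apoe-/- and from 4.24, 5.24 and 10.3 to 1.23, 0.848 and 1.09 RPKM in DKO. Every treated library was below every untreated one in both genotypes. The responses were -2.75 and -2.44, an interaction of 0.31 (SE 0.53, 95% interval -0.82 to 1.44), which spans large differences in both directions. Socs3, an inhibitor of cytokine signalling, had responses of -2.13 in Apoe-/- and -2.35 in DKO (interaction -0.22, SE 0.28), and Cxcl10, an interferon-induced chemokine, -2.17 and -2.08 (0.09, SE 0.33). Cd69, a lymphoid and myeloid activation marker, had -2.04 and -1.75 (0.29, SE 0.34). Gdf15, a stress-induced cytokine, was called higher in the mean of both genotypes (1.44, limma adjusted p = 0.00473) and in neither alone, with 1.46 in Apoe-/- and 1.42 in DKO (-0.05, SE 0.62). Its sign in the interaction turned under other settings.

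Scd2 encodes a stearoyl-CoA desaturase, which makes monounsaturated fatty acids. Untreated Apoe-/- replicates had 4.36, 4.60 and 8.07 RPKM, which became 9.43, 11.6 and 11.6 RPKM after oxLDL 10. Untreated DKO replicates had 2.58, 2.18 and 2.58 RPKM, which became 11.6, 13.7 and 11.2 RPKM. Untreated DKO libraries were all below untreated Apoe-/- libraries, whereas the treated libraries of both genotypes overlapped.

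The response of Scd2 was 0.97 in Apoe-/- (SE 0.18, limma adjusted p = 0.00341) and 2.26 in DKO (SE 0.18, limma adjusted p = 7.17e-06). Their difference was 1.29 (SE 0.26, 95% interval 0.75 to 1.83), with a limma unadjusted p of 0.000107 and an adjusted p of 1.00. By replicate number the rises were 1.09, 1.32 and 0.51 in Apoe-/- and 2.13, 2.59 and 2.07 in DKO, which do not overlap. The exact two-sided permutation test gave p = 0.10, the smallest that 3 against 3 allows. Scd2 was named for its small p in this same contrast, so the separation and the permutation p are a description. With the replicate block the SE was 0.18 and the adjusted p 0.0386. That call was kept without Apoe-/- replicate 2 (adjusted p = 0.00627) and was lost without any other single animal: 0.466 without Apoe-/- replicate 1, 0.0960 without Apoe-/- replicate 3, and 0.0815, 0.164 and 0.0575 without DKO replicates 1, 2 and 3. After rescaling libraries by the median ratio the blocked adjusted p was 0.0737.

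The same values can be read between genotypes, from the same libraries. Scd2 was lower in DKO than in Apoe-/- untreated (-1.13, limma adjusted p = 0.0106), where 27 genes were called (0.21%; higher 0.171%, lower 0.0389%). With oxLDL 10, where 11 were called (0.0857%; higher 0.0623%, lower 0.0234%), its difference was 0.16 (95% interval -0.22 to 0.54). Without the Xist-positive animals these counts were 308 and 110, and without DKO replicate 3 alone they were 205 and 77. Without the Xist-positive replicates the interaction of Scd2 was 1.56. Summed fibroblast and stromal markers in untreated cells were 21.4, 1.35 and 13.7 RPKM in Apoe-/- and 5.83, 8.18 and 2.29 RPKM in DKO. Apoe-/- replicate 2, with the lowest sum, had Scd2 at 4.60 RPKM, and the part of these cells in the result was not tested. Scd1, the paralog, had group means of 0.0497 to 0.205 RPKM.

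The list of fatty acid synthesis and desaturation, which holds Scd2, had 13 members tested. Its median interaction was 0.06, against -0.03 for all genes. Positive values were found for 10 members, of which 2 had an unadjusted p under 0.05. Of all 12838 genes 4733 were positive, or 6801 after median-ratio rescaling. The median was -0.006 without Apoe-/- replicate 3, 0.001 without its untreated library alone and 0.12 without DKO replicate 1. Scd2 was called higher in both genotypes, while 3 members were called lower in Apoe-/- and 2 in DKO. Acaca, which encodes acetyl-CoA carboxylase, the first committed enzyme of the pathway, went from 5.29, 5.39 and 6.32 to 4.94, 4.30 and 4.96 RPKM in Apoe-/-, and from 5.05, 4.70 and 5.32 to 5.31, 5.15 and 5.01 RPKM in DKO. Every Apoe-/- replicate moved down more than every DKO replicate. Its interaction was 0.29 (SE 0.11, 95% interval 0.05 to 0.53, limma adjusted p = 1.00). Fasn, the fatty acid synthase, fell in Apoe-/- from 12.2 ± 0.797 to 7.38 ± 1.52 RPKM (SD, n = 3; -0.74, limma adjusted p = 0.00356). In DKO it was at 12.8 ± 1.21 and 9.13 ± 0.907 RPKM (SD, n = 3; -0.48, limma adjusted p = 0.0625), and the interaction was 0.25 (95% interval -0.16 to 0.67). Fads2, a fatty acid desaturase, fell in both genotypes, by 0.86 and by 0.79. Srebf1, which encodes the factor SREBP1 that drives this pathway, had responses of 0.03 and 0.23, and the replicates did not overlap (0.09, 0.02 and -0.01 in Apoe-/-, and 0.31, 0.22 and 0.17 in DKO). Its interaction was 0.20 (SE 0.11). Across all genes, 5.91% had replicates that did not overlap, 1.42% with the higher values in DKO, and after median-ratio rescaling 11.4% and 6.59%.

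**Figure D2:**
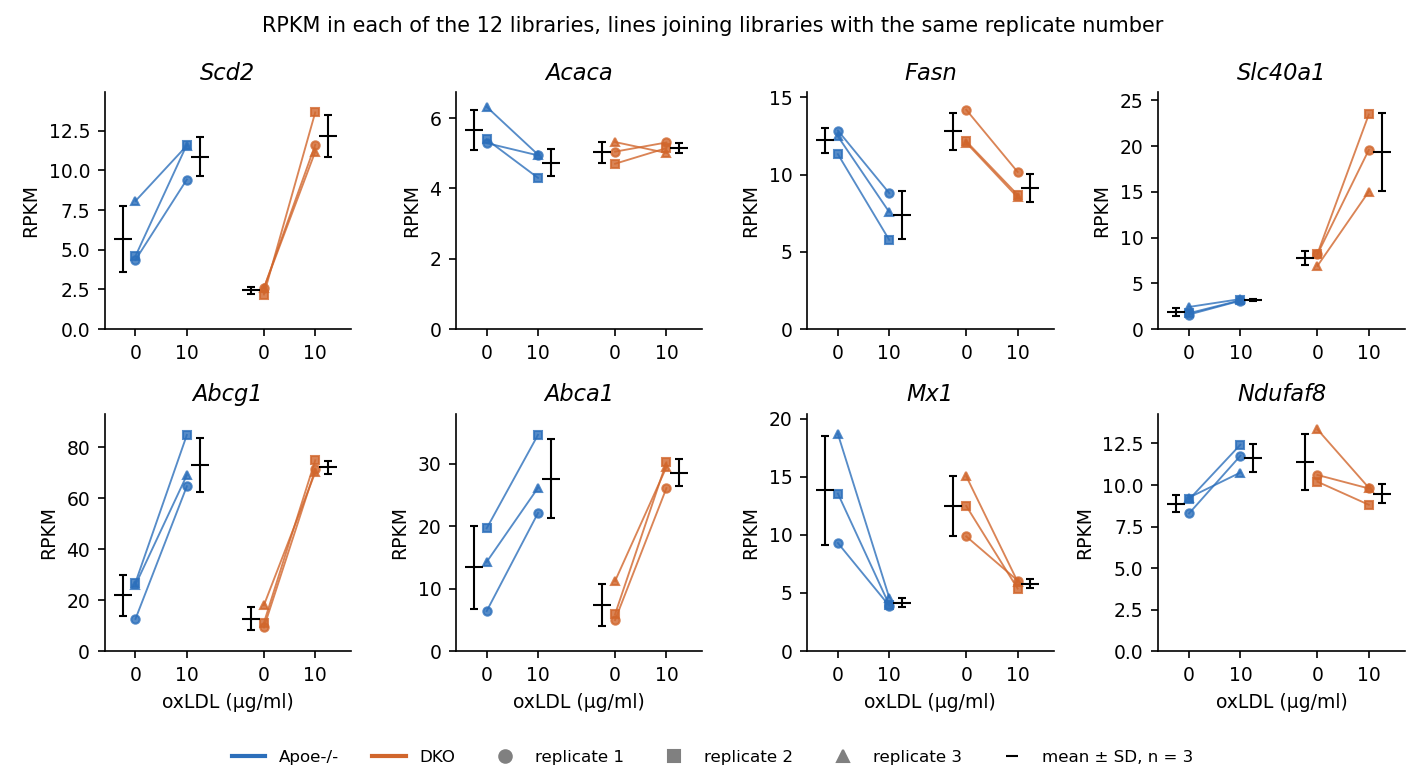
RPKM of 8 genes in each of the 12 libraries, for Apoe-/- (blue) and DKO (orange) without and with oxLDL 10. Lines join libraries with the same replicate number and black bars give the mean ± SD of 3 libraries. Untreated means of Scd2, Abcg1 and Abca1 are lower in DKO, with untreated libraries that overlap for Abcg1 and Abca1, and treated levels overlap for all 3, Slc40a1 was higher in DKO throughout, and Ndufaf8 went up in Apoe-/- and down in DKO.

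The exporters of cholesterol also had larger rises in DKO by their means, with a wider spread. Abcg1, which moves cholesterol to HDL, went from 12.6, 26.9 and 26.0 to 64.7, 84.8 and 69.1 RPKM in Apoe-/-. In DKO it went from 9.24, 11.1 and 18.0 to 71.3, 74.9 and 70.1 RPKM. Treated levels overlapped between genotypes, and untreated levels overlapped only through Apoe-/- replicate 1. The rises were 1.80 in Apoe-/- (limma adjusted p = 0.000298) and 2.55 in DKO (limma adjusted p = 1.13e-05), and the interaction was 0.74 (SE 0.34, 95% interval 0.03 to 1.46, adjusted p = 1.00). It ran from 0.54 without DKO untreated replicate 1 to 1.10 without Apoe-/- untreated replicate 1.

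Abca1, which moves cholesterol to lipid-poor apolipoprotein A-I, went from 6.40, 19.6 and 14.3 to 22.1, 34.6 and 26.1 RPKM in Apoe-/-, and from 4.96, 5.90 and 11.2 to 26.1, 30.2 and 29.5 RPKM in DKO. Its interaction was 0.88 (SE 0.45, 95% interval -0.08 to 1.83). It ran from 0.54 without Apoe-/- untreated replicate 2 to 1.34 without Apoe-/- untreated replicate 1. Of the 6 untreated libraries, DKO replicates 1 and 2 and Apoe-/- replicate 1 had the lowest Abca1, and the same 3 libraries had the lowest Abcg1. Untreated levels enter the interaction by subtraction, so leaving out a low or a high untreated library shifts it by construction. The part of differences between animals before treatment in the interaction of these genes was not tested. Mylip, an LXR-induced ubiquitin ligase, rose from 11.8 ± 2.73 to 22.9 ± 2.62 RPKM in Apoe-/- and from 9.94 ± 2.07 to 24.0 ± 0.622 RPKM in DKO (SD, n = 3), an interaction of 0.30 (SE 0.21).

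Not all LXR targets followed. Of 15 members tested, 4 were called higher in Apoe-/- (Abca1, Abcg1, Mylip and Arl4c) and 5 in DKO (the same and Mertk), with median responses of 0.23 in both and a median interaction of 0.01. Arl4c, a small GTPase, rose by 0.63 in Apoe-/- and 0.67 in DKO, and its interaction of 0.04 (SE 0.10) was small beside those of the exporters. Mertk, a receptor for dying cells, had 0.59 and 0.82 (0.23, SE 0.28). Lpcat3, which remodels phospholipids, was at 0.23 in both (0.00, SE 0.13). Nr1h3, which encodes LXRα, had an interaction of 0.01 (SE 0.22).

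Promoter sequences are shown for 4 genes of the lipid programmes that moved with oxLDL 10: Abca1 and Mylip, which rose, and Fasn and Nsdhl, which fell in Apoe-/-. They are RefSeq entries of build GRCm38.p6, from 250 bases before to 50 after the annotated start. Entries were found for 4 of 7 genes looked up (Scd2, Abcg1 and Slc40a1 had none). Capitals mark matches on either strand to 5 motifs: the CCAAT box by its own letters, the GC box as GGGCGG, the E-box as CACGTG, the sterol response element as TCACNCCAC and a pair of AGGTCA in the same direction with 4 bases between (DR4, the repeat that LXR binds). Among 32851 promoters of that length, 37.4% hold the CCAAT box, 35.7% the GC box, 7.15% the E-box, 1.24% the sterol response element and 0.0152% the DR4.

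Abca1, chr4:53159846-53160145, minus strand: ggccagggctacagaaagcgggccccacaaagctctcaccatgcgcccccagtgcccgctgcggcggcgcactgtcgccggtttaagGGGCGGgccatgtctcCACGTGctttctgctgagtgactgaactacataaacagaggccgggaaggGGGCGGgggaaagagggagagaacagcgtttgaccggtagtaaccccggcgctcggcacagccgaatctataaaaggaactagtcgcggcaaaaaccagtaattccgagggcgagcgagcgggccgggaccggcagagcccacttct
Mylip, chr13:45389492-45389791, plus strand: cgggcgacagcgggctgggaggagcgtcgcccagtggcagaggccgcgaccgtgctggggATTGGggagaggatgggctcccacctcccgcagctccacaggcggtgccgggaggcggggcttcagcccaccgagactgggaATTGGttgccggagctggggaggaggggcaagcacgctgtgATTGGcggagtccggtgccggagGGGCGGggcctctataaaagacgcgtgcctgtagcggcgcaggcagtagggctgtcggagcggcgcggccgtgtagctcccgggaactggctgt
Fasn, chr11:120824498-120824797, minus strand: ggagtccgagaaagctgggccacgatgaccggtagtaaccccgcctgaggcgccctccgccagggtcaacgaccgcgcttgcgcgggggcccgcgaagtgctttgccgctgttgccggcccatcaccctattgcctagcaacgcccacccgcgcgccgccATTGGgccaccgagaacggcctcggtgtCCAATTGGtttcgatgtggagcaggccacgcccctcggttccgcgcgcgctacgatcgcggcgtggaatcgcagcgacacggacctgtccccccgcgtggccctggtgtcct
Nsdhl, chrX:72918271-72918570, plus strand: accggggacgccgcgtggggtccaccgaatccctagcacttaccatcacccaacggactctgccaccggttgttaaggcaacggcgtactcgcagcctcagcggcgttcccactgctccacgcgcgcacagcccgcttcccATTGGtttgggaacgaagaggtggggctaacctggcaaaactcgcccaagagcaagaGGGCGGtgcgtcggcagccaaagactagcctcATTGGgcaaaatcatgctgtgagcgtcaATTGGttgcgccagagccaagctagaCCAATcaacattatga

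The Abca1 window held 2 GC boxes and 1 E-box and no CCAAT box. Mylip had 3 CCAAT boxes and 1 GC box, Fasn 3 CCAAT boxes, of which a pair overlaps, and Nsdhl 4 CCAAT boxes and 1 GC box. The sterol response element and the DR4 in these spellings matched none of the 4 windows. Only exact spellings were searched, so variant forms of these sites are not marked and their absence is not shown. The motifs are a description of these letters and bear on no difference between genotypes.

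Genes of cholesterol synthesis were called lower in both genotypes, with like medians. Of 24 members tested, 16 were called lower in Apoe-/- and 14 in DKO, with medians of -0.60 and -0.57, and the median interaction was -0.003. By replicate number the list's median response ran from -0.80 to -0.52 in Apoe-/- and from -0.67 to -0.49 in DKO, so the genotypes overlapped. For 14 of the 24 genes the interval of the interaction lay inside 1.4-fold. Idi1, the isomerase of the mevalonate pathway, fell by 1.27 and by 1.34, Cyp51, the lanosterol demethylase, by 1.33 and by 1.28, and Srebf2, which encodes SREBP2, by 1.06 and by 1.07.

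Late enzymes of the pathway are given next. Nsdhl, a sterol dehydrogenase, had replicate responses of -0.38, -0.49 and -0.56 in Apoe-/- and of -0.35, 0.01 and -0.28 in DKO, which do not overlap, and an interaction of 0.27 (95% interval -0.01 to 0.56). Tm7sf2, a sterol reductase, went the other way, with 0.27 and -0.16 (-0.43, SE 0.19) and overlapping replicates. Neither passed the adjusted test.

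Among 16 genes of lipid storage, 4 were called higher in Apoe-/- and 2 in DKO, and the median interaction was -0.04. Plin2, the coat protein of lipid droplets, rose by 0.78 in Apoe-/- and by 0.62 in DKO (-0.15, SE 0.17), and Hilpda, an inhibitor of lipolysis, by 0.66 and by 0.74 (0.08, SE 0.25). Angptl4, an inhibitor of lipoprotein lipase, went from 1.54, 0.887 and 1.48 to 2.75, 2.34 and 2.57 RPKM in Apoe-/-, and from 2.21, 2.08 and 1.49 to 2.77, 2.70 and 2.07 RPKM in DKO. The treated levels overlapped and the rise was larger in every Apoe-/- replicate (0.76 to 1.31) than in any DKO replicate (0.31 to 0.44). The interaction was -0.58 (SE 0.25, 95% interval -1.11 to -0.06, limma adjusted p = 1.00), and -0.35 without Apoe-/- untreated replicate 2. Dgat1, an enzyme of triglyceride synthesis, had 0.26 in Apoe-/- and 0.00 in DKO (-0.26, SE 0.11), and its replicates did not overlap either. Pnpla2, the triglyceride lipase, had -0.15 (SE 0.13).

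Slc40a1 encodes ferroportin, the exporter of iron. Apoe-/- replicates went from 1.59, 1.74 and 2.42 to 3.11, 3.15 and 3.28 RPKM, and DKO replicates from 8.18, 8.23 and 6.91 to 19.6, 23.5 and 15.0 RPKM. All DKO libraries were above all Apoe-/- libraries at both conditions, and all treated libraries above the untreated ones of their genotype. It was called higher in DKO untreated (1.98, limma adjusted p = 2.63e-06) and with oxLDL 10 (2.55, limma adjusted p = 5.6e-08). It rose in Apoe-/- (0.72, limma adjusted p = 0.00827) and in DKO (1.29, limma adjusted p = 0.000107). The interaction was 0.56 (SE 0.21, 95% interval 0.11 to 1.02, unadjusted p = 0.0181, adjusted p = 1.00), and the adjusted p was 0.921 with the replicate block. Replicate responses of 0.92, 0.82 and 0.42 in Apoe-/- and of 1.25, 1.5 and 1.11 in DKO did not overlap.

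The other iron genes did not share this pattern. Over 18 members tested the median interaction was -0.02, and 2 were called higher in each genotype, Slc40a1 and Hmox1. Hmox1, the heme oxygenase, rose by 0.93 in Apoe-/- and by 1.03 in DKO (0.10, SE 0.21). Ftl1 and Fth1, the ferritin chains, had interactions of -0.11 (SE 0.17) and -0.05 (SE 0.14), and Tfrc, the transferrin receptor, -0.20 (SE 0.30). Spic, a factor of iron-recycling macrophages, had -0.27 (SE 0.27), and Pcbp1, an iron chaperone, -0.17 (SE 0.18), the latter with replicates that did not overlap.

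The type I interferon response fell in both genotypes. Of 30 genes, 26 were called lower in Apoe-/- and 25 in DKO, with medians of -1.0 and -0.82. The interaction was positive for 29 of 30 (4733 of all 12838 genes were positive, or 6801, 53%, after median-ratio rescaling), with a median of 0.17, which is 0.22 after that rescaling, and a range from -0.12 (Bst2) to 0.59 (Mx1). None was called and 1 had an unadjusted p under 0.05. Interferon genes rise and fall together within a library, so that they are not independent. The list's median response was -0.56, -1.05 and -1.32 in Apoe-/- replicates 1 to 3 and -0.56, -0.82 and -0.98 in DKO replicates 1 to 3. These ranges overlap, and no member had replicates without overlap. The median interaction rested on single animals: it was 0.003 without Apoe-/- replicate 3 and 0.37 without Apoe-/- replicate 1.

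Mx1, an antiviral GTPase, had the widest difference of the list. It went from 9.30, 13.6 and 18.7 to 3.90, 3.99 and 4.61 RPKM in Apoe-/- and from 9.87, 12.5 and 15.0 to 6.07, 5.38 and 5.98 RPKM in DKO. The untreated levels overlapped and every treated DKO library was above every treated Apoe-/- library. The interaction was 0.59 (SE 0.26, 95% interval 0.03 to 1.14), from 0.34 without Apoe-/- untreated replicate 3 to 0.84 without Apoe-/- untreated replicate 1. Rnf213, an interferon-induced ubiquitin ligase outside the list, went from 46.7 ± 8.89 to 21.4 ± 2.25 RPKM in Apoe-/- and from 45.4 ± 3.46 to 27.1 ± 1.37 RPKM in DKO (SD, n = 3), an interaction of 0.37 (SE 0.17). Rsad2 (0.39, SE 0.27) and Oas3 (0.18, SE 0.14), both antiviral enzymes, had the next smallest p in the list.

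Inflammatory cytokines and chemokines fell with wide intervals. Of 22 tested, 15 were called lower in Apoe-/- and 12 in DKO, with medians of -1.17 and -1.12 and a median interaction of 0.07. For only 1 of the 22 did the interval lie inside 1.4-fold. Tnf fell by 0.79 and by 0.80 (-0.01, SE 0.21), and Nos2, the inducible nitric oxide synthase, by 2.05 and by 1.54 (0.51, SE 0.30). Ccl12, a monocyte chemoattractant, had 0.62 (SE 0.64), which rested on Apoe-/- replicate 2 (5.48 RPKM untreated and 1.83 RPKM treated), and Il18 had -0.25 (SE 0.19). Of 17 feedback inhibitors, 8 were called lower in Apoe-/- and 10 in DKO, with a median interaction of -0.015. Socs1 had replicates that did not overlap and -0.46 (SE 0.32), Nfkbia had -0.13 (SE 0.12), and Cd274 had 0.26 (SE 0.28).

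Among 19 immediate early factors, 4 were called lower in each genotype, and the median interaction was -0.10. Egr1 was low and went from 0.298, 0.203 and 0.278 to 0.0364, 0.0297 and 0.0535 RPKM in Apoe-/-, and from 0.180, 0.159 and 0.180 to 0.0555, 0.103 and 0.0384 RPKM in DKO. It fell in both, by 1.36 and by 0.74. Its replicates did not overlap (0.62, SE 0.26), but the treated libraries overlapped and the gene's level came down to 5.56 reads in 1 library. Fos had -0.21 (SE 0.12) and Nr4a2 0.41 (SE 0.24).

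NRF2 targets had mostly narrow intervals. Of 20 genes, 9 were called higher in Apoe-/- and 10 in DKO, with medians of 0.48 and 0.46, and the interval of the interaction lay inside 1.4-fold for 16. Nqo1 rose by 0.92 and by 0.86 (-0.06, SE 0.14), Gclm, a subunit of glutathione synthesis, by 0.73 and by 0.68 (-0.05, SE 0.10), and Srxn1, a sulfiredoxin, by 0.88 and by 0.84 (-0.04, SE 0.15). The exception by size was Gsta3, a glutathione transferase, with replicate responses of 0.82, 0.49 and 0.61 in Apoe-/- and 1.21, 1.13 and 1.28 in DKO, which do not overlap (0.57, SE 0.45, limma adjusted p = 1.00). It was 0.14 without DKO untreated replicate 3 and 0.95 without DKO oxLDL 10 replicate 3. Taldo1 (-0.13, SE 0.10) and G6pdx (0.06, SE 0.09), both of the pentose phosphate pathway, had the next smallest p.

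**Figure D3:**
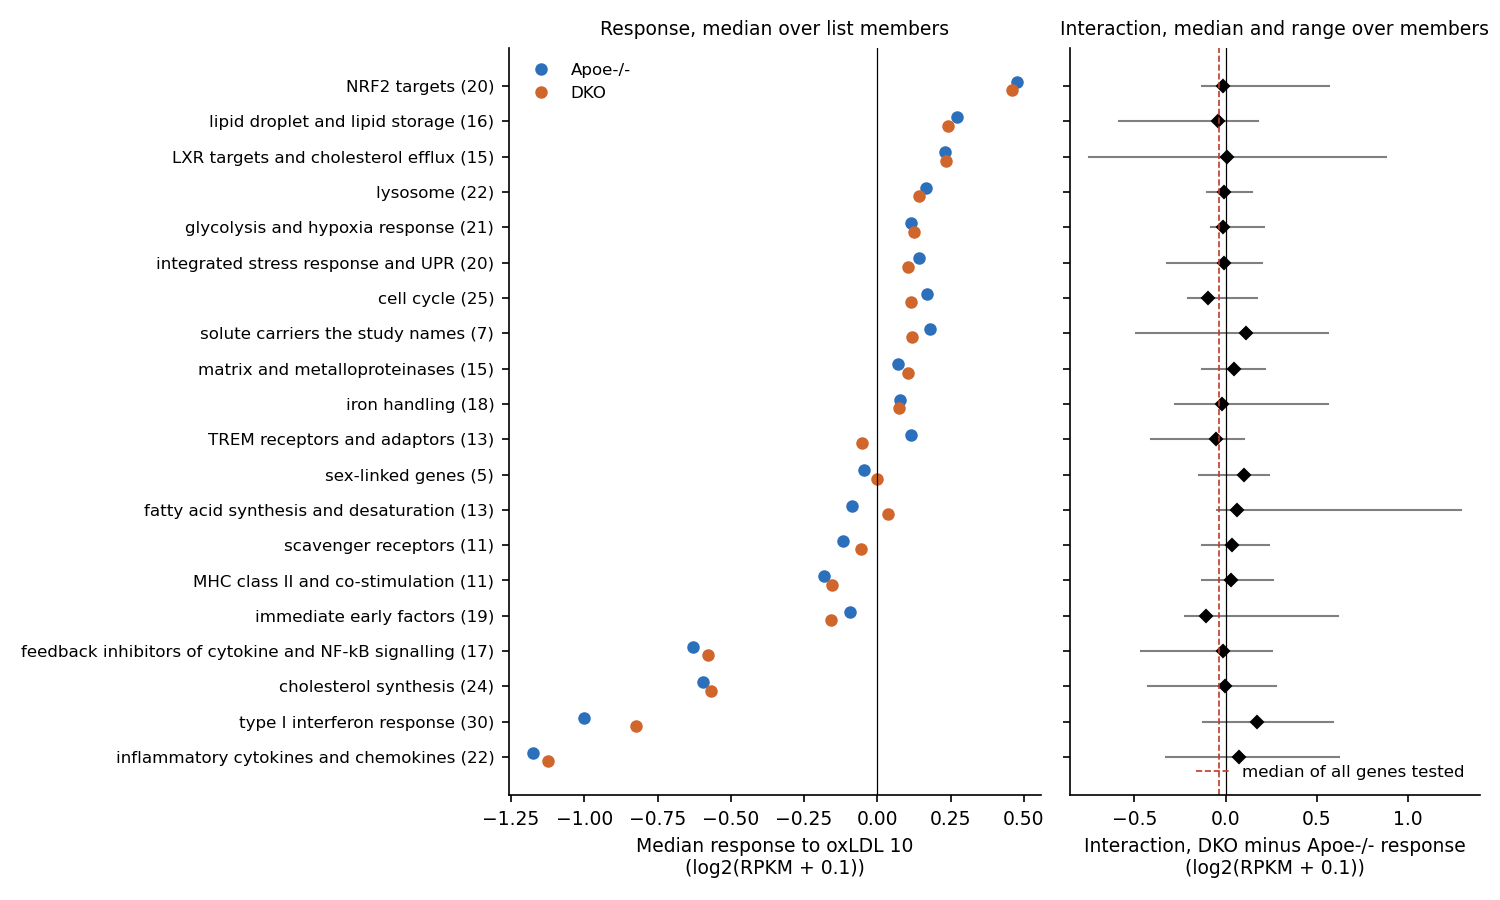
Left, median response to oxLDL 10 over the tested members of each gene list in Apoe-/- (blue) and DKO (orange), with the number of genes in brackets. Right, median (diamond) and range (line) of the interaction over the same members, with the median of all genes as a dashed line. The medians of both genotypes lie close to each other, with the interferon list 0.17 apart by its median interaction.

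Lists with few called genes follow. The median interaction was -0.10 over 25 cell cycle genes. It was -0.01 over 22 lysosomal genes, 20 genes of the integrated stress and unfolded protein responses, and 21 genes of glycolysis and hypoxia. Of the cell cycle genes 23 were negative, against 8105 of all 12838 genes, and their median was -0.05 after median-ratio rescaling. Mcm6, Mcm2 and Mcm5, subunits of the replicative helicase, had -0.16 each (SE 0.09, 0.10 and 0.11), with replicates that did not overlap. Over 11 scavenger receptors the median was 0.03, and 2 were called lower in each genotype. Stab1, a scavenger receptor, went from 108, 141 and 125 to 114, 120 and 108 RPKM in Apoe-/- and from 108, 114 and 106 to 122, 119 and 116 RPKM in DKO (0.24, SE 0.11), with replicates that overlapped. Cxcl16 (-0.13, SE 0.14) and Scarb1 (0.06, SE 0.09) were the next. Sdf2l1, an endoplasmic reticulum protein, had -0.18 (SE 0.08), and Herpud1 and Calr, of the same compartment, had -0.10 and -0.07.

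Matrix genes (15 tested) had a median of 0.05 and MHC class II and co-stimulation genes (11 tested) one of 0.03, with 1 member called lower in each genotype in both lists. Mmp9 and Mmp13, metalloproteinases, had 0.13 (SE 0.30) and 0.16 (SE 0.37), Adam8 -0.09 (SE 0.16), and Cd80, Cd40 and Cd83 0.26, 0.08 and -0.13, all within 1 SE of 0. Hk1, Vegfa and Pfkfb3, of glycolysis and hypoxia, had 0.17, 0.21 and 0.14, and Npc1 and Npc2, of the lysosome, 0.14 and -0.10. Of the 14 solute carriers that the study names, 7 were tested. Slc40a1 apart, the values were low (Slc16a12 at most 0.0599 and Slc18b1 at most 0.441 RPKM by group mean), with interactions of -0.49 (SE 0.35) and -0.37 (SE 0.37) for these. The study chose that list on these samples, so it is no independent evidence.

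In the TREM family, 13 genes tested had a median of -0.05 and none was called in either genotype. Trem1 had -0.28 (SE 0.24) and Hcst, the adaptor DAP10, -0.22 (SE 0.18). Trem2 rose by less than the limit in both, with 0.25 and 0.20 (-0.05, SE 0.13). Apoe, removed in both genotypes, kept 0.349 to 4.13 RPKM in the 12 libraries and had responses of 0.81 and 0.78, an interaction of -0.03 (SE 0.56). The sex-linked genes Xist, Uty and Eif2s3y followed the Xist-positive replicates and had interactions within 0.24 of 0.

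The 12 positive interactions with the smallest p and a mean of at least 1 RPKM included, besides those above, Zbtb33, Fnbp1l, Myoz1, Clybl and Zcchc2. Zbtb33, which encodes the methyl-CpG-binding factor Kaiso, was at 3.34, 3.21 and 4.13 RPKM before and 3.24, 2.67 and 4.01 RPKM after oxLDL 10 in Apoe-/-, and went from 3.28, 5.99 and 3.29 to 5.53, 7.22 and 5.24 RPKM in DKO. Every treated DKO library was above every Apoe-/- library. It had an interaction of 0.67 (SE 0.28) that passed no adjusted test (limma adjusted p = 1.00, or 0.921 under the replicate block), while the value at oxLDL 60 was -0.17. Fnbp1l, a membrane-bending protein, fell from 12.9 ± 1.62 to 6.63 ± 0.302 RPKM in Apoe-/- and from 13.4 ± 2.46 to 9.04 ± 1.10 RPKM in DKO (SD, n = 3), an interaction of 0.39 (SE 0.17) with replicates that did not overlap. Myoz1 had 0.61 (SE 0.24), Clybl 0.27 (SE 0.12) and Zcchc2 0.29 (SE 0.13), all 3 with overlapping replicates.

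Among the 12 negative interactions with the smallest p, the 10 genes with a length here ran from 375 to 3527 bases, below the median of 4261 bases for all genes. Ndufaf8, an assembly factor of respiratory complex I, went from 8.29, 9.13 and 9.24 to 11.8, 12.4 and 10.8 RPKM in Apoe-/- and from 10.6, 10.2 and 13.3 to 9.79, 8.81 and 9.83 RPKM in DKO. It went up in all 3 Apoe-/- replicates (0.50, 0.44 and 0.22) and down in all 3 DKO replicates (-0.11, -0.21 and -0.44). The interaction was -0.64 (SE 0.16, 95% interval -0.97 to -0.30, limma unadjusted p = 0.00089, adjusted p = 1.00, or 0.626 under the replicate block). Selenoh, a selenoprotein, went from 27.4 ± 0.744 to 33.8 ± 1.70 RPKM in Apoe-/- and from 32.5 ± 2.19 to 30.5 ± 2.77 RPKM in DKO (SD, n = 3), an interaction of -0.40 (SE 0.11).

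H2bc12 and H3c10, histone genes, had -0.36 (SE 0.11) and -0.53 (SE 0.17). H2bc12 went from 234, 232 and 203 to 269, 311 and 281 RPKM in Apoe-/-, and from 224, 226 and 263 to 248, 221 and 245 RPKM in DKO. Terc, the RNA of telomerase, had -0.70 (SE 0.22) and rested on 27.4 to 46.7 reads a library. Rpl31-ps12 (-0.68, SE 0.21), a processed pseudogene, and the histone genes have near-identical copies, so their reads may be split between copies. The others were Gtpbp8 (-0.32), Ppp1r35 (-0.43), Tmem216 (-0.46), Rpl22l1 (-0.32), Cetn3 (-0.29) and Mcrip2 (-0.44). Across all genes, 4.49% had replicates that did not overlap with the lower values in DKO, and 4.82% after median-ratio rescaling.

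**Figure D4:**
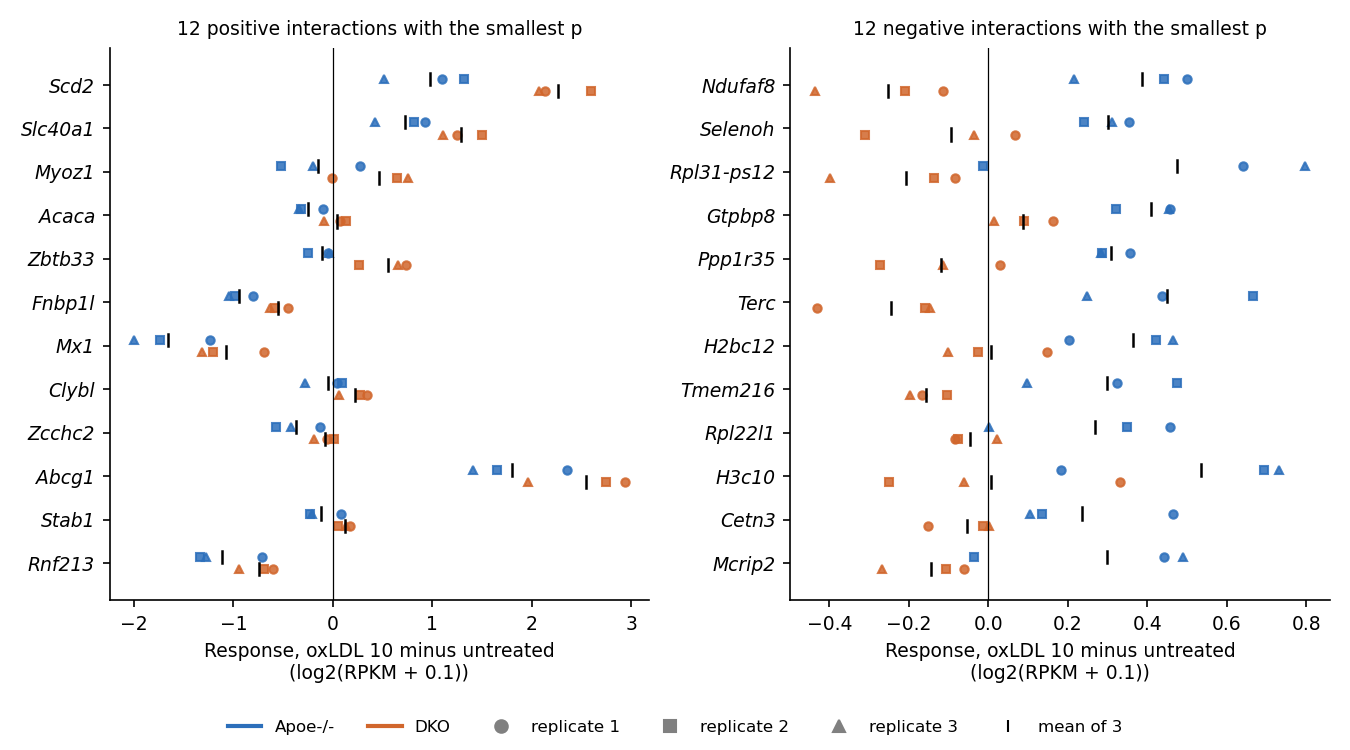
Response to oxLDL 10 on the log2(RPKM + 0.1) scale of each replicate number in Apoe-/- (blue) and DKO (orange) for the 12 positive (left) and 12 negative (right) interactions with the smallest p, with means as black ticks. The genes were chosen by this contrast, so the separation is a description. Responses of Scd2 are 0.51 to 1.32 in Apoe-/- and 2.07 to 2.59 in DKO.

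Gene length moved with the direction of the interaction. With GENCODE M21 exon lengths, the median interaction was -0.14 for 485 genes under 1 kb, -0.10 for 1503 genes of 1 to 2 kb, -0.05 for 3846 genes of 2 to 4 kb, -0.03 for 4673 genes of 4 to 8 kb and 0.01 for 2066 genes over 8 kb. The order was the same after median-ratio rescaling, from -0.09 to 0.05. Genes with an unadjusted p under 0.05 had a median length of 1962 bases when lower in DKO and 2874 bases when higher, against 4261 bases for all genes. The responses of Apoe-/- replicate 2 fell from 0.16 in the shortest class to -0.08 in the longest, and those of DKO replicate 2 went the other way, from -0.05 to 0.05. Apoe-/- replicate 1 was above 0 in every class (0.15 to 0.28), and its untreated library had the lowest sum of RPKM of the 12 (345768, against 375374 to 409034). The part of length or of these libraries in single interactions was not tested.

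**Figure D5:**
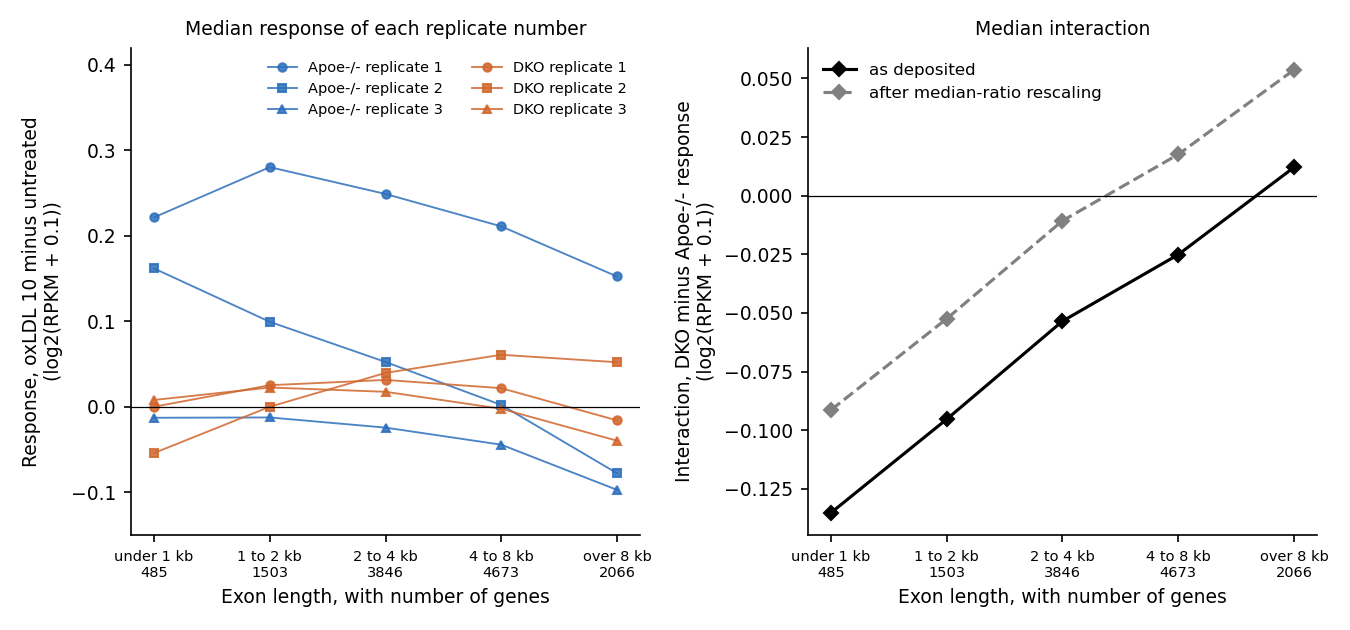
Left, median response to oxLDL 10 of genes in 5 classes of exon length, for each replicate number of Apoe-/- (blue) and DKO (orange). Right, median interaction in the same classes as deposited (black) and after median-ratio rescaling (grey), from -0.14 for genes under 1 kb to 0.01 for genes over 8 kb as deposited.

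At oxLDL 60 the same contrast, which shares the 6 untreated libraries, called 2 genes (0.0156%), of which Treml4 was 1. With oxLDL 60 Treml4 was at 8.06 to 8.39 RPKM in Apoe-/- and at 0 in DKO, where it is deleted. Its response in DKO could thus not be measured, and the size of its interaction depends on the pseudocount. Side by side, the interaction at oxLDL 10 and at oxLDL 60 was 1.29 and 1.23 for Scd2, 0.88 and 0.91 for Abca1, 0.74 and 0.71 for Abcg1, and 0.56 and 0.76 for Slc40a1. It was 0.29 and 0.30 for Acaca, -0.40 and -0.46 for Selenoh, and -0.58 and -0.83 for Angptl4. For Ndufaf8 it was -0.64 and -0.24, for Fnbp1l 0.39 and 0.14, and for Terc -0.70 and 0.24. Since the untreated values enter both, likeness of these pairs is no second piece of evidence.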

How the data were processed

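The authors aligned reads with STAR to mm10, per the labels' processing notes, and deposited 1 table of RPKM values. The study's methods name a core facility workflow with STAR, RnaSeqC and Subread among its tools. Which step made the RPKM values, and on which annotation, is not given in the sources used here. The labels list runs on several instruments and with different read lengths, and do not tie libraries to runs. RPKM is relative to each library's reads, so abundant RNAs lower all other values of that library. Strand was marked in the library protocol, and its use in counting is not given. Groups and replicate numbers came from the sample labels.

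Depth was recovered from steps of 1 read in low values with GENCODE M21 lengths (92.9% of 23740 values within 0.05 of a whole read), and 3 reads over 1 kb equal 0.0619 to 0.0766 RPKM. Such limits cover counting error only. A count test was not run, since RPKM was not turned back into counts.

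Group means of log2(RPKM + 0.1) were fitted to 18 libraries in 6 groups with limma 3.58.1 in R 4.3.3 (eBayes with trend), with Benjamini-Hochberg adjustment over all genes. The pseudocount understates changes of low genes. The script was tested on simulated data. Plots and depth estimates were made in Python 3.11.15 (matplotlib 3.10.9, pandas 2.3.3, numpy 2.4.6).

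Libraries with the same number within a genotype had deviations from the group mean that correlated at 0.183 to 0.638. For other numbers the values were -0.540 to 0.292 (median -0.365). Deviations cancel out within a group, so positive values for the same number push those for other numbers down. That contrast is thus partly built in. Since 10 of 12 libraries correlated best with their own number, numbers were assumed to mark the same animal. The word animal is used in that sense. The replicate block fits each animal as a term. Between genotypes the same number gave -0.361 to 0.267 and marks nothing shared.

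Named genes were Treml4 and Apoe, genes called in the interaction with or without the block, the 12 with the smallest p in each direction at a mean of at least 1 RPKM, the 3 with the smallest p in each list, and the 5 largest mean responses in each direction. Other genes are list members given for their role, and a few named by the rule are not reported here. The members, lists and tests were chosen with earlier results of these data known. The table held 24 symbols turned into dates. The series text calls the replicates biological, and no source says whether a number marks a mouse.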

Additional observations from a re-analysis of the deposited data

Results flagged for a closer look

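Scd2 was singled out because its response to oxLDL 10 differed between the genotypes by a test of the difference itself, the interaction with the replicate block (1.29 on the log2(RPKM + 0.1) scale, SE 0.18, limma adjusted p = 0.0386). Without the block the adjusted p was 1.00, with the block and median-ratio rescaling it was 0.0737, and with the block it was 0.0575 to 0.466 when any of 5 of the 6 animals was left out. Responses were 1.09, 1.32 and 0.51 in Apoe-/- replicates 1 to 3 and 2.13, 2.59 and 2.07 in DKO replicates 1 to 3, higher in 3 of 3 DKO replicates than in any Apoe-/- replicate. The gene was singled out by these same values, so they are no further evidence.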

How the results depend on the processing

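For the interaction at oxLDL 10 the count was 1 with the replicate block, 3 with the block and the 4 groups alone, 1 with the block without the Xist-positive animals (an alternative chosen after seeing the data), and 0 to 1 when single libraries or animals were left out. For the mean response it was 278 with a pseudocount of 1 and 1728 with no fold limit. For the Apoe-/- response it was 528 with the block, 571 with the block and median-ratio rescaling, 561 with the block and the 4 groups alone, 904 with no fold limit, and 234 to 568 with samples left out. For the DKO response the same settings gave 449, 455, 486 and 510, and 124 to 455. For genes shared by both they gave 378 with the block and rescaling, 375 with the block and the 4 groups alone, 439 with no fold limit, and 108 to 339.

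Counts of genotype differences moved with the animals left out. In untreated cells the count was 308 without the Xist-positive animals and 159 with a term for them. It was 17 with no filter on low values, 51 with no fold limit, and 9 to 205 with samples left out. With oxLDL 10 it was 110 without the Xist-positive animals, 61 with the term for them, and 8 to 77 with samples left out. For the interaction at oxLDL 60 it was 1 with a pseudocount of 1, 0 with 0.01, 1 at a mean of at least 1 RPKM, 5 with the block, 5 with the block and rescaling, 1 with the Xist term, 11 with the block without Xist-positive animals, and 0 to 16 with samples left out. Genes whose replicates did not overlap numbered 1465 after rescaling, 2574 without the Xist-positive animals, and 1429 to 2959 with samples left out, and each of the 12 libraries moved that count by over 1.5 times, since fewer replicates separate more easily.

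Some single interactions changed sign. Gdf15 was 0.0323 with a pseudocount of 1 and 0.0381 without Xist-positive animals. Apoe was 0.0405 with a pseudocount of 0.01, 0.00713 after rescaling and 0.12 without those animals, and Cd80 was -0.11 without them. With samples left out the ranges were -0.32 to 0.38 for Apoe, -0.0011 to 0.14 for Scarb1, -0.0010 to 0.15 for G6pdx, -0.15 to 0.00042 for Calr, -0.24 to 0.016 for Npc2, -0.037 to 0.59 for Cd80, -0.043 to 0.25 for Cd40, -0.42 to 0.18 for Cd83, -0.21 to 0.014 for Adam8, -0.032 to 0.36 for Mmp9, -0.095 to 0.46 for Mmp13, -0.057 to 0.68 for Il1b, -0.14 to 0.31 for Cxcl10 and -0.54 to 0.54 for Gdf15. The cause was not tested. Scd2 stayed positive under every alternative run (1.01 to 1.56). With 3 animals a genotype and no counts, small differences of low genes may have been missed.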

Other observations

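Groups of short RNAs had negative interactions, and these groups were chosen after their values were seen and get no test. Of all 12838 genes 8105 were negative, and 207 of these had an unadjusted p under 0.05. After median-ratio rescaling 6801 (53%) of all genes were positive. Of 55 replication-dependent histone genes, 54 were negative, with a median of -0.34, and 25 had an unadjusted p under 0.05. Their summed level went from 11521, 10869 and 9921 to 12646, 13432 and 13547 RPKM in Apoe-/- and from 9960, 10830 and 12306 to 11584, 9486 and 11833 RPKM in DKO. It went up in all 3 Apoe-/- replicates, and up in 1 and down in 2 DKO replicates. Of 79 ribosomal protein genes 77 were negative, with a median of -0.15. Of 47 Nduf genes of respiratory complex I 46 were negative, with a median of -0.14, against -0.03 for all genes. After median-ratio rescaling the medians were -0.30 for histone, -0.11 for ribosomal protein and -0.09 for Nduf genes, against 0.008 for all genes.

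For 58 small nucleolar RNAs the median was -0.70, and their summed level stood apart in 1 library, oxLDL 10 replicate 2 of Apoe-/-, with 873 RPKM against 379 to 565 RPKM in the other 11. With the replicate block and the 4 groups alone, Snora26 (-2.51, adjusted p = 0.0435) and Snora78 (-1.35, adjusted p = 0.0480) were called in limma beside Scd2. Snora26 was at 1.72 RPKM in that library and at most 0.285 RPKM in the other 11.

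The largest interaction of any gene tested was that of Lars2, a mitochondrial leucyl-tRNA synthetase, at 2.56 (SE 2.76). It stood at 3648, 799 and 52.5 RPKM in untreated Apoe-/- replicates 1 to 3 and at 13.9, 8.34 and 1539 RPKM with oxLDL 10, against 21.6 to 268 RPKM in the 6 DKO libraries. Its Apoe-/- replicates went down in 2 and up in 1. Which RNA gave such high values in single libraries was not tested, so they are not read as levels of the enzyme's transcript.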
